A study of Mus musculus with 12 samples.

Results

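Embryoid bodies that had lost Trim33 were compared with control embryoid bodies on day 2 of differentiation, across all genes. The members are 6 of the 12 libraries of the series, 3 per group, chosen by the day and the genotype in the sample titles, and the other 6 libraries are the same groups on day 2.5. Embryoid bodies are floating aggregates in which mouse embryonic stem cells leave pluripotency and begin to form early lineages. Per the labels, the stem cells were derived from outbred mouse embryos, had the Trim33-flox allele on both chromosomes, and carried UbcCreERT2, a Cre recombinase under the ubiquitin C promoter, which is active in most cell types, that works only while 4-hydroxytamoxifen is present. The lines were grown in LIF and 2i, without feeder cells, until bodies were formed. Cre was switched on with 4-hydroxytamoxifen on day 1, at 24 hours of differentiation, so the day 2 libraries show the cells about 1 day after induction.

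The control group is labelled wildtype and the other group Trim33-deficient. The labels describe the floxed alleles and the transgene for the lines as a whole and do not state whether the control bodies also received 4-hydroxytamoxifen. An effect of the drug or of active Cre and an effect of Trim33 loss therefore cannot be told apart in any value below. The labels speak of 3 independent pairs without saying that a replicate number marks a pair, so the p-values reflect how far these libraries spread, which may be technical in part. All values are from whole bodies, in which fewer cells of a type and less RNA per cell cannot be told apart.

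Trim33, also called TIF1-gamma, is a nuclear protein with a RING finger and, at its other end, a PHD finger and a bromodomain that bind modified histone H3 tails. It binds the SMAD2 and SMAD3 proteins that Nodal, Activin and TGF-beta activate, and it can attach ubiquitin to SMAD4. Cells in LIF and 2i are in a naive state, held by STAT3 and a small set of transcription factors, and on withdrawal they pass through a primed, epiblast-like state before they choose a germ layer under Nodal, BMP, Wnt and FGF signals.

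Depth on day 2 ranged from 10066338 to 15944536 counts assigned to genes per library. Levels are given in CPM, that is, counts divided by a library size that edgeR's TMM factors adjust, and 3 counts, taken as the floor of detection, equal 0.184 to 0.318 CPM. These floors cover counting error only. Trim33-deficient replicate 1 stood apart: the ribosomal RNA precursor Rn45s took 7.87% of its counts, against 0.636 to 1.04% in the other 5, and its depth was the lowest. That library was the highest of its group for 66.0% of the genes that rose and the lowest for 70.7% of those that fell, and the part of this in the results was not tested beyond leaving it out. Control replicate 2 lay 0.58 (log2) above the mean of all libraries over the 25 tested genes of a glycolysis and hypoxia list, against -0.19 to 0.09 in the other 5. Of 10 markers of pluripotent and early epiblast cells, the kind the labels describe, among them Pou5f1, Sox2, Cdh1 and Nanog, none was under 65.2 CPM in any day 2 library. The 4 Y-linked genes looked at had no count in any of the 6.

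The target gene came out low in all 3 libraries labelled Trim33-deficient. Trim33 stood at 275, 261 and 277 CPM in the control libraries and 60.5, 69.6 and 68.0 CPM in the Trim33-deficient libraries. The groups did not overlap, and the fall was 4.09-fold (log2 fold change -2.03 ± 0.06 SE, adjusted p = 1.00e-11). Unless another test is named, this and every adjusted p below is from edgeR's quasi-likelihood test with Benjamini-Hochberg adjustment over all 14356 genes tested, and a gene is said to have risen or fallen, or to have been called, at an adjusted p under 0.05. Where a gene's value carries no unit, it is the log2 fold change of Trim33-deficient over control on day 2. The counts are per gene and not per exon, so reads from cells that kept the gene and reads from exons outside the floxed part cannot be told apart in what remained. None of the 3 relatives, the TIF1 proteins Trim24, Trim28 and Trim66, was called, at log2 fold changes of 0.10, -0.07 and 0.49, and by edgeR only Trim24 had an unadjusted p under 0.05. DESeq2 called none of them either. Of the 10 tested genes nearest to Trim33 in the RefSeq gene order, 5 on each side, none was called, and their log2 fold changes lay between -0.21 and 0.28.

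In all, 853 of the 14356 genes tested (5.94%) rose in Trim33-deficient bodies and 560 (3.90%) fell, together 9.84%. Most changes were small. The median rise was 1.36-fold (log2 0.44, quartiles 0.31 and 0.68) and the median fall 1.196-fold (log2 -0.26, quartiles -0.37 and -0.20), while the median over all tested genes was -0.005. Past 2-fold there were 89 rises (0.620%) and 14 falls (0.0975%), and past 3-fold 13 rises and 1 fall, Trim33. Rises and falls sat at different levels: the median control level was 28.0 CPM for genes that rose, 114 CPM for genes that fell and only 2.07 CPM for genes that rose past 2-fold. Among genes with a mean of at least 100 CPM, 156 rose (6.05%) and 285 fell (11.1%) of 2577, whereas between 1 and 10 CPM 176 rose (4.42%) and 48 fell (1.2%) of 3986. The counts over gene lists below are to be read beside these shares and those over all genes. A list near them moved no more than the tested genes at large.

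The total rests in part on single libraries. It was 514 without Trim33-deficient replicate 1, 564 without control replicate 3, 795 and 881 without Trim33-deficient replicates 2 and 3, and 971 without control replicate 1. With upper-quartile factors 784 genes rose and 730 fell. Of the 1413 called genes, 1404 had groups that did not overlap, as did 14.9% of all tested genes upwards and 14.5% downwards, and 399 (2.78% of those tested) had no overlap and stayed called in each of the 6 fits that left out 1 day 2 library. Below, a gene is called stable where it is one of these 399, and where leaving out 1 day 2 library ended a named gene's call, those libraries are given.

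**Figure D1:**
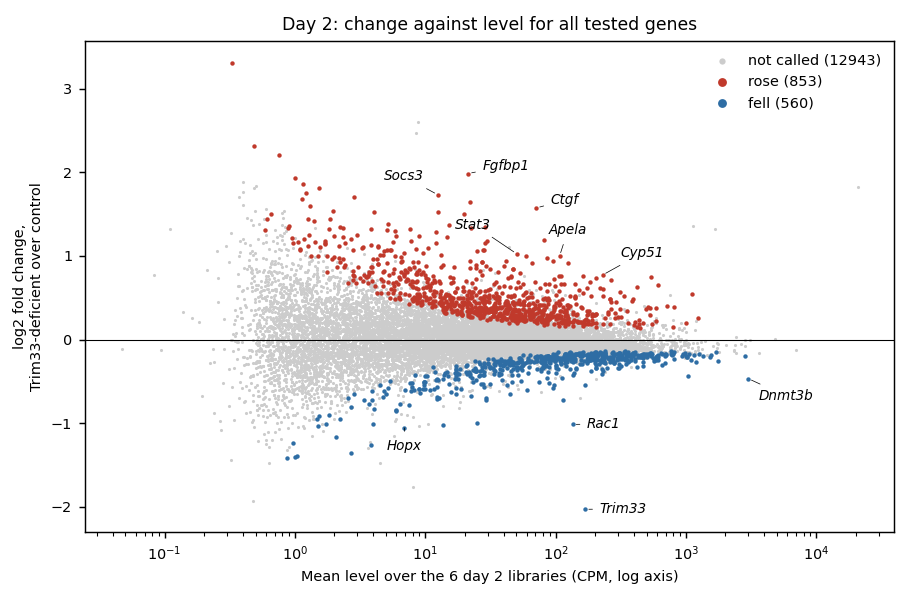
Log2 fold change of Trim33-deficient over control bodies on day 2 (vertical axis) against the mean level over the 6 libraries in CPM (horizontal log axis), 1 point per tested gene, with the 853 rises in red and the 560 falls in blue. Falls are mostly small changes of abundant genes, and Trim33 and Rac1 stand apart below them.

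Fgfbp1 had the largest stable rise. It encodes a secreted carrier that frees fibroblast growth factors from the matrix, and it stood at 10.01, 6.73 and 8.81 CPM in the control libraries and 39.8, 31.6 and 30.8 CPM in the Trim33-deficient libraries, a 3.96-fold rise (log2 1.99 ± 0.15 SE, adjusted p = 4.58e-06). Every Trim33-deficient library was more than 3 times the highest control. Socs3, the feedback inhibitor of the LIF receptor and JAK kinases, stood at 6.25, 5.49 and 5.27 CPM in the control libraries and 26.7, 17.003 and 14.1 CPM in the Trim33-deficient libraries, with a wide spread above controls that lay close together (log2 1.73 ± 0.23, adjusted p = 0.000793). Ctgf, a matrix protein of the CCN family, stood at 39.1, 31.0 and 36.5 CPM in the control libraries and 127, 100.1 and 92.6 CPM in the Trim33-deficient libraries (log2 1.57 ± 0.11, adjusted p = 1.39e-06), and again the lowest Trim33-deficient value was more than 2 times the highest control.

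Other large rises began from low levels. Dusp8, a phosphatase of stress-activated MAP kinases, went from 2.002, 0.851 and 1.102 CPM to 5.09, 3.501 and 4.55 CPM (log2 1.71 ± 0.26), and Irak3, an inhibitor of Toll-like receptor signalling, from 8.25, 3.79 and 7.004 CPM to 24.3, 14.4 and 16.96 CPM (log2 1.52 ± 0.26). Mme, the cell-surface peptidase neprilysin, went from 8.73, 7.73 and 8.73 CPM to 26.0, 21.1 and 19.1 CPM (log2 1.37 ± 0.15), P2rx7, an ATP-gated ion channel, from 12.3, 12.5 and 13.1 CPM to 40.9, 27.9 and 28.03 CPM (log2 1.34 ± 0.19), and Thsd7a, a membrane protein with thrombospondin repeats, from 2.24, 2.24 and 1.73 CPM to 6.15, 5.94 and 5.84 CPM (log2 1.52 ± 0.18). Tfap2c, a transcription factor of trophoblast and germ cells that is also active in naive stem cells, went from 3.20, 5.34 and 4.33 CPM to 14.001, 9.75 and 9.28 CPM (log2 1.33 ± 0.19, adjusted p = 0.000887). In all 6 the groups were separate, and Trim33-deficient replicate 1 was the highest library. The remaining 6 of the 15 largest stable rises were Ctrb1, 1700061G19Rik, Pdzrn4, Klf5, E330020D12Rik and Tchh, at log2 fold changes of 1.60, 1.51, 1.38, 1.35, 1.33 and 1.32.

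Among the 10 stable genes with the smallest adjusted p were Trim33, Rac1, Ctgf, the cholesterol genes Cyp51 and Sqle, and Apela, Ccdc85a and Sdc4. Apela, which encodes the peptide hormone ELABELA that pluripotent cells secrete, stood at 70.5, 71.1 and 72.2 CPM in the control libraries and 159, 134 and 136 CPM in the Trim33-deficient libraries (log2 0.999 ± 0.07, adjusted p = 4.33e-07). Ccdc85a, a coiled-coil protein gene, went from 6.97, 6.73 and 7.397 CPM to 16.7, 17.8 and 17.1 CPM (log2 1.29 ± 0.09, adjusted p = 4.33e-07), and Sdc4, a heparan sulfate proteoglycan of focal adhesions, from 95.1, 83.3 and 89.6 CPM to 143, 139.9 and 143 CPM (log2 0.67 ± 0.06, adjusted p = 4.30e-06). Controls in these 3 genes differed from each other by little beside the gap between groups.

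Among the falls, Rac1 was second only to Trim33 in its adjusted p. Rac1 is a small GTPase that drives actin polymerisation at the leading edge of cells and at new cell contacts. It stood at 187, 178 and 178 CPM in the control libraries and 85.0, 86.5 and 96.2 CPM in the Trim33-deficient libraries, which is 2.02-fold lower (log2 -1.02 ± 0.05, adjusted p = 1.14e-08), with less than 15% between the lowest and highest library within either group. None of the 10 tested genes nearest to Rac1 was called, at log2 fold changes from -0.19 to 0.15. Of 30 tested genes of Rac1, related small GTPases and their regulators, Rac1, Rhob (-0.33) and the effector kinase Pak1 (-0.18) fell and Rnd3 (0.24) rose. Rhob lost its call without control replicates 1 or 3 or without Trim33-deficient replicates 1, 2 or 3, Pak1 without control replicates 1 or 3 or without Trim33-deficient replicates 1 or 2, and Rnd3 without control replicate 2 or without Trim33-deficient replicates 2 or 3. Rac3, Cdc42 and Rhoa were not called, at 0.18, 0.01 and -0.11.

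The other large stable falls were of modest size and came from genes of several kinds. Hopx, a small homeodomain protein that does not itself bind DNA, went from 6.81, 12.1 and 9.29 CPM to 3.71, 5.19 and 4.43 CPM (log2 -1.06 ± 0.21, adjusted p = 0.00591), and Fgf15, a growth factor of the early neural plate and epiblast-like cells, from 33.5, 39.9 and 35.3 CPM to 18.6, 22.6 and 25.01 CPM (log2 -0.70 ± 0.12, adjusted p = 0.00235). Nlgn3 and Nrcam, both neural adhesion genes, fell by 0.86 and 0.78 (log2), and Ntrk2, the receptor of the neurotrophin BDNF, fell by 0.68. Col1a1, the main chain of fibrillar collagen, went from 5.93, 4.33 and 5.11 CPM to 3.08, 2.50 and 3.07 CPM (log2 -0.84 ± 0.17), and Slc16a6 and Stox2 fell by 0.67 and 0.66. The remaining 5 of the 15 were Gdpd1 (-1.02), Pla2g1b (-0.73), Prr19 (-0.71), Plac8 (-0.71) and Tpt1 (-0.65), and Tpt1 has near-identical copies in the genome, so its value is uncertain. Only Trim33, Hopx, Gdpd1 and Rac1 of the 15 passed 2-fold.

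**Figure D2:**
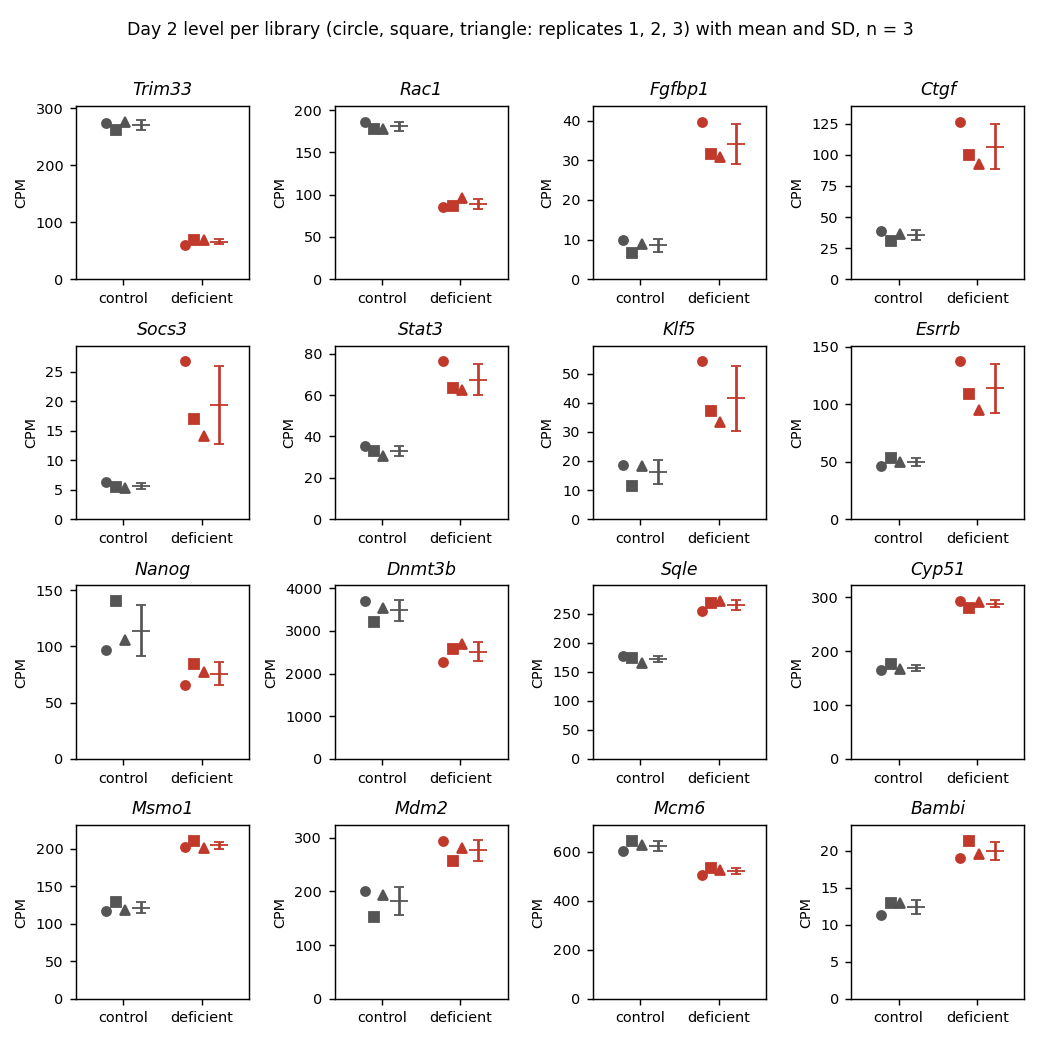
Level in CPM of 16 genes in each day 2 library, control in grey and Trim33-deficient in red, with circles, squares and triangles for replicates 1, 2 and 3 and a bar for the mean and SD (n = 3). In each panel the groups are separate. Replicate 1 is the highest Trim33-deficient library for Fgfbp1, Ctgf, Socs3, Stat3, Klf5, Esrrb, Cyp51 and Mdm2. It is the lowest for Trim33, Rac1, Nanog, Dnmt3b, Mcm6, Sqle and Bambi.

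Genes of the LIF and STAT3 pathway were higher as a group: 8 of 21 tested members rose, 1 fell, and the median was 0.30 (log2) against -0.005 over all genes. LIF binds a receptor made of LIFR and gp130 (Il6st), whose JAK kinases activate STAT3, and STAT3 in turn switches on naive factors and its own inhibitor Socs3. Within the receptor, Il6st went from 39.4, 42.1 and 37.5 CPM to 59.3, 55.1 and 56.2 CPM (log2 0.52 ± 0.07, adjusted p = 0.000793), while Lifr stood at 0.22 and was not called. Stat3 stood at 35.6, 32.8 and 30.8 CPM in the control libraries and 76.4, 63.6 and 62.6 CPM in the Trim33-deficient libraries (log2 1.03 ± 0.10, adjusted p = 2.40e-05). Every Trim33-deficient library held more than 1.5 times the Stat3 of any control library. The kinases Jak1 and Jak2 stood at 0.07 and 0.08, neither called.

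Downstream, the inhibitors Socs3 and Socs2 both rose, Socs2 from 70.1, 61.3 and 72.9 CPM to 109.7, 88.3 and 91.8 CPM (log2 0.50 ± 0.08, adjusted p = 0.00201), and so did Bcl3, a nuclear I-kappa-B protein that is a STAT3 target in stem cells, from 2.88, 3.48 and 2.28 CPM to 9.44, 6.19 and 6.33 CPM (log2 1.31 ± 0.24, adjusted p = 0.00415). Klf4, Klf5 and Tfcp2l1, the transcription factors through which STAT3 holds naive cells, had log2 rises of 1.07, 1.35 and 1.15. Klf4 lost its call without control replicate 3. Klf5 stood at 18.7, 11.4 and 18.2 CPM in the control libraries and 54.3, 37.2 and 33.4 CPM in the Trim33-deficient libraries, and Tfcp2l1 at 15.2, 21.2 and 16.3 CPM in the control libraries and 48.5, 36.1 and 34.1 CPM in the Trim33-deficient libraries. Sgk1, a kinase gene that serum and glucocorticoids induce, was the member that fell, from 185, 206 and 212 CPM to 144, 139 and 129 CPM (log2 -0.55 ± 0.07). Other members, such as Pim1 (0.09), Socs1 (0.18) and Cish (-0.21), were not called. The count of rises stayed between 7 and 9 when any 1 day 2 library was left out.

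The promoter of Socs3 is printed because this gene had the largest rise of the list. Bases run from 250 before to 50 after the annotated start, 5′ to 3′ on the gene's strand, from RefSeq on the build GRCm38.p6 (chr11:117969317-117969616, minus strand), with TTCNNNGAA, the core that STAT proteins can bind, in capitals. The search covered both strands, and the motif reads the same on both.
Socs3: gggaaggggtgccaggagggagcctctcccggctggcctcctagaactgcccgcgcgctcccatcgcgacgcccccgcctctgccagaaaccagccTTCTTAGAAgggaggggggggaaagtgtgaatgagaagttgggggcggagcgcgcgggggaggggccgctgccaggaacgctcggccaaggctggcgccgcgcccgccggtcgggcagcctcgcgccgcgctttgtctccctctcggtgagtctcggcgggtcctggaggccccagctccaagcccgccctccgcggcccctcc
The motif was in 3 of 27 windows of the list (11.1%), those of Socs3, Sgk1 and Cish, and in 8.30% of all 32851 windows.

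Naive pluripotency genes overlapped this list in Klf4, Klf5, Tfcp2l1 and Gbx2: 8 of 21 rose and 1 fell. Esrrb, an orphan nuclear receptor of the naive network, stood at 45.9, 53.3 and 49.8 CPM in the control libraries and 137, 109 and 95.0 CPM in the Trim33-deficient libraries (log2 1.19 ± 0.14, adjusted p = 0.000798). Tdh, the threonine dehydrogenase on which mouse stem cells depend, went from 66.9, 44.2 and 62.3 CPM to 133, 108 and 101 CPM (log2 0.97 ± 0.17), and Fbxo15, a reporter gene of the pluripotent state, from 38.7, 37.4 and 40.4 CPM to 71.5, 65.1 and 52.9 CPM (log2 0.69 ± 0.14). Klf2 (0.66) and Dppa3 (0.48) were also called. Klf2 lost its call without control replicates 1, 2 or 3 or without Trim33-deficient replicate 1 and Dppa3 without control replicates 1, 2 or 3 or without Trim33-deficient replicates 1 or 2. Nanog went the other way, from 96.7, 140.1 and 105 CPM to 65.2, 84.8 and 77.5 CPM (log2 -0.58 ± 0.15, adjusted p = 0.0353), and its groups did not overlap. Nanog lost its call without control replicates 2 or 3 or without Trim33-deficient replicates 1 or 3. Zfp42, better known as Rex1, and Tbx3 had log2 fold changes of 0.45 and 0.94 and unadjusted p of 0.0327 and 0.00676, but were not called. The count of rises fell to 5 without control replicate 3.

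Of the core factors that naive and primed cells share, 1 of 10 was called. Pou5f1 stood at 976, 919 and 915 CPM in the control libraries and 928, 838 and 851 CPM in the Trim33-deficient libraries (log2 -0.10 ± 0.06), and Sox2 at 0.12 ± 0.06, and neither was called. The called one was Lin28b, which blocks let-7 microRNA maturation, from 116, 117 and 121 CPM to 81.04, 97.3 and 96.2 CPM (log2 -0.36 ± 0.06, adjusted p = 0.00300).

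Genes of the primed epiblast were lower in part: 7 of 19 tested fell and none rose. Of the 19, 13 had negative and 6 had positive values, with a median of -0.16. Dnmt3a and Dnmt3b, the enzymes that methylate DNA anew as cells leave the naive state, went from 1244, 1078 and 1242 CPM to 866, 877 and 891 CPM (log2 -0.44 ± 0.07, adjusted p = 0.00287) and from 3694, 3198 and 3542 CPM to 2269, 2579.8 and 2697 CPM (log2 -0.47 ± 0.10, adjusted p = 0.0140). Dnmt3b lost its call without control replicate 3 or without Trim33-deficient replicate 1. Their groups were separate, and the maintenance enzyme Dnmt1 stood at -0.09 and was not called. Sox4, a SoxC transcription factor, went from 95.6, 104 and 99.6 CPM to 75.8, 73.8 and 67.2 CPM (log2 -0.47 ± 0.07), and Zic2, Zic5 and Sox3 stood at -0.38, -0.43 and -0.30, with calls that single libraries ended. Zic2 lost its call without control replicates 1, 2 or 3 or without Trim33-deficient replicate 1, Zic5 without control replicate 3 or without Trim33-deficient replicates 1 or 2, and Sox3 without control replicates 1, 2 or 3 or without Trim33-deficient replicates 1 or 2. Otx2, the homeobox factor that leads the change to the primed state, had a log2 fold change of -0.70 ± 0.30 but an adjusted p of 0.186, and its 3 control libraries read 152, 244 and 180.2 CPM. Fgf5, the usual marker of the primed state, stood at -0.19 ± 0.09 and Pou3f1 at -0.03 ± 0.10, neither called. The count of falls was 3 without control replicate 3 or without Trim33-deficient replicate 1.

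Targets of YAP and TEAD formed a group that changed little with the choice of libraries: 8 of 18 tested rose, none fell, the median was 0.25, and 7 or 8 rose when any 1 day 2 library was left out. YAP is a coactivator that enters the nucleus when the Hippo kinases LATS1 and LATS2 are inactive, and it acts through the TEAD factors on genes of matrix and cytoskeleton and on its own inhibitors. Ctgf is described above. Cyr61, the other CCN gene, stood at 7.93, 9.36 and 8.73 CPM in the control libraries and 22.8, 20.1 and 18.6 CPM in the Trim33-deficient libraries (log2 1.23 ± 0.23, adjusted p = 0.00933). Lats2, a target that is also the kinase of the pathway, went from 4.16, 4.64 and 5.43 CPM to 11.6, 12.3 and 8.54 CPM (log2 1.18 ± 0.17, adjusted p = 0.000793), whereas Lats1 stood at 0.11 and was not called. Amotl2 and Ajuba, junction proteins that hold back or promote YAP, rose by 0.51 and 0.52 (log2), and Ptpn14, a phosphatase that binds YAP, rose by 0.62. Arhgef17 was called at 0.30 and Asap1 at 0.20, and Asap1 lost its call in each of the 6 leave-outs. Of the factors, Tead1 (0.43) and Lats2 were the called ones among 16. Tead1 lost its call without control replicates 2 or 3 or without Trim33-deficient replicate 1. Yap1 stood at -0.05 ± 0.04, Wwtr1 at 0.18 ± 0.12 and Tead2 at -0.39 ± 0.15, all not called.

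GGAATG, the core of the TEAD site, was searched on both strands of the same promoter windows, and 3 called targets are shown with it in capitals (CATTCC where it lies on the other strand). Their windows are chr14:54577612-54577911 (minus strand), chr9:102717554-102717853 (plus strand) and chr14:57746074-57746373 (minus strand) on GRCm38.p6, from RefSeq.
Ajuba: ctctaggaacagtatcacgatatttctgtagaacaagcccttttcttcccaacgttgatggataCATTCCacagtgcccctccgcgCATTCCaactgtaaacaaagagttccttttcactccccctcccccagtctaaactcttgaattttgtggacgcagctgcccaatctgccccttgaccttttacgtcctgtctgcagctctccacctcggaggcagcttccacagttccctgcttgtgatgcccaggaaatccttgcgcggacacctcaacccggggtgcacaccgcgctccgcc
Amotl2: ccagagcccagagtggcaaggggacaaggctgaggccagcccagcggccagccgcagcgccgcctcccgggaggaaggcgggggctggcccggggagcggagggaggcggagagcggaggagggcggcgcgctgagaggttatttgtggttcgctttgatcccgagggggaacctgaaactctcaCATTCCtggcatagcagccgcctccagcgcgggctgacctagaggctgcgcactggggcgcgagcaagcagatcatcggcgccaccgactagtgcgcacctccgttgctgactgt
Lats2: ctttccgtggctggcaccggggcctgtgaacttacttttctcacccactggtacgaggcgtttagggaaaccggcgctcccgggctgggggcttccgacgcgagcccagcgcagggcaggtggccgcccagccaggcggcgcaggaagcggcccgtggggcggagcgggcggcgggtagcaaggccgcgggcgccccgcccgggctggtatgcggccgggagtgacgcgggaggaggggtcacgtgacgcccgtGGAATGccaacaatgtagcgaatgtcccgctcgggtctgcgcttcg
Lats2 has a second window, without the motif. All 5 called targets that have a window in the table held the motif, as did 7 of 13 windows of the list (53.8%), against 14.7% of all 32851 windows and 15.2% of the windows of genes that rose. A match is a description of letters, not a bound site.

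Cholesterol genes were higher along nearly the whole pathway. Of 20 enzymes listed, 19 were tested, 15 rose, all 19 had positive log2 fold changes and the median was 0.38. Hmgcs1, an early enzyme of the pathway, has no count in any of the 12 libraries and was not tested. Sqle, which oxidises squalene, stood at 177, 175 and 166 CPM in the control libraries and 255, 268 and 272 CPM in the Trim33-deficient libraries (log2 0.62 ± 0.05, adjusted p = 2.72e-06), and Cyp51, which removes a methyl group from lanosterol, at 165, 176 and 166 CPM in the control libraries and 293, 281 and 291 CPM in the Trim33-deficient libraries (log2 0.77 ± 0.05, adjusted p = 2.53e-07).

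Of the steps between, Pmvk, Fdft1 and Lss rose by 0.51, 0.41 and 0.31 (log2), and Mvk, Idi1 and Fdps by 0.34, 0.66 and 0.33. Lss lost its call without control replicate 3 or without Trim33-deficient replicate 2, Mvk without control replicate 3 or without Trim33-deficient replicates 1, 2 or 3, Idi1 without control replicates 1 or 3 or without Trim33-deficient replicates 2 or 3, and Fdps without control replicates 1 or 3 or without Trim33-deficient replicates 2 or 3. Among the last enzymes Msmo1, the sterol methyl oxidase, went from 116, 129 and 118 CPM to 203, 210.0 and 201 CPM (log2 0.75 ± 0.07), and Nsdhl and Dhcr7 rose by 0.36 and 0.40. Acat2, Mvd, Ebp and Sc5d were not called, at 0.20, 0.21, 0.04 and 0.16. The count of rises was 9 without control replicate 3 or without Trim33-deficient replicate 2, and 14 without Trim33-deficient replicate 1. Pmvk, Fdft1, Sqle, Cyp51, Msmo1, Nsdhl and Dhcr7 were among the stable ones.

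Genes of control and transport moved with part of this. Srebf2, whose protein SREBP2 is the master activator of the pathway, went from 315, 343 and 316 CPM to 491, 448 and 426 CPM (log2 0.48 ± 0.06, adjusted p = 0.000232). Stard4, a sterol transfer protein, went from 38.5, 41.9 and 32.8 CPM to 48.8, 51.7 and 50.2 CPM (log2 0.41 ± 0.08), and Insig1, which holds SREBP in the endoplasmic reticulum, from 103, 147 and 109 CPM to 182, 181 and 177 CPM (log2 0.59 ± 0.13). Insig1 lost its call without control replicate 3 or without Trim33-deficient replicate 1. The export genes Abca1 and Abcg1, which oxysterols induce through LXR, stood at 0.09 ± 0.18 and -0.08 ± 0.14 and were not called. Of 21 fatty acid genes 4 rose: Elovl6, which lengthens palmitate (0.44 ± 0.06, stable), Scd1 (0.50), Scd2 (0.40) and Elovl1 (0.30). Scd1 lost its call without control replicates 1 or 3 or without Trim33-deficient replicates 1, 2 or 3 and Scd2 without control replicates 1 or 3 or without Trim33-deficient replicates 2 or 3. Elovl1 lost its call in each of the 6 leave-outs. Fasn stood at 0.23 ± 0.09 and Srebf1 at 0.10 ± 0.06, neither called. Without control replicate 2 the fatty acid rises numbered 8. They numbered 2 without control replicate 1 or without Trim33-deficient replicate 1. Without control replicate 3 or without Trim33-deficient replicates 2 or 3 there was 1.

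**Figure D3:**
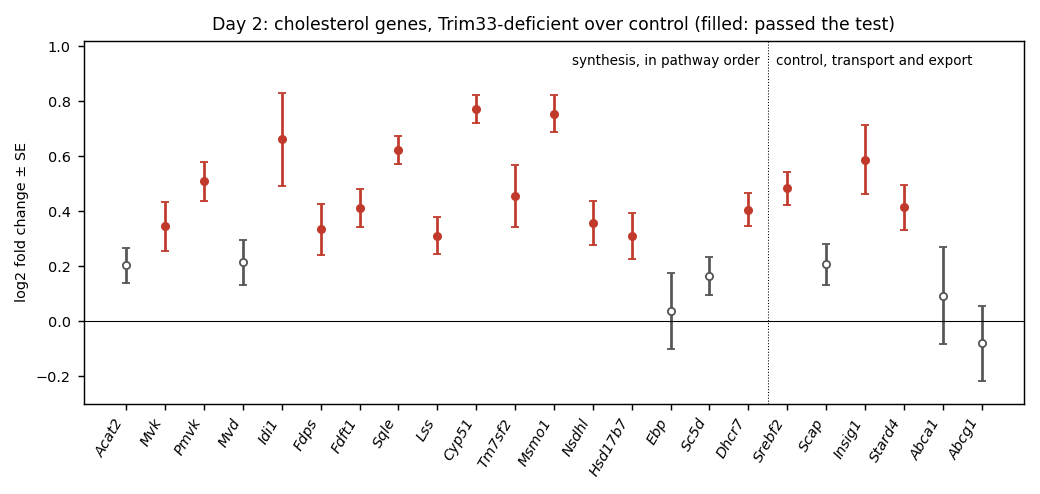
Log2 fold change with its standard error for 17 cholesterol synthesis genes in pathway order and 6 genes of control, transport and export, with filled points for genes that passed the test. The synthesis genes shown all lie above 0, from 0.04 for Ebp to 0.77 for Cyp51.

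CCAAT, the box of the factor NF-Y that works beside SREBP at many sterol promoters, is shown in capitals in the windows of 3 called genes (ATTGG where it lies on the other strand), which are chr13:8885356-8885655 (plus strand), chr5:4104648-4104947 (minus strand) and chr8:64733529-64733828 (minus strand) on GRCm38.p6, from RefSeq.
Idi1: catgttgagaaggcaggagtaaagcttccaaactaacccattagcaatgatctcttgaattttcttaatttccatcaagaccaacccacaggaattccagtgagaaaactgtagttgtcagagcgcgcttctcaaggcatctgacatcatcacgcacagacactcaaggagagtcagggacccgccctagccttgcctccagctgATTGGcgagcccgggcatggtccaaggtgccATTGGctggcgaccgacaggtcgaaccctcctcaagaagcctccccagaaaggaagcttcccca
Cyp51: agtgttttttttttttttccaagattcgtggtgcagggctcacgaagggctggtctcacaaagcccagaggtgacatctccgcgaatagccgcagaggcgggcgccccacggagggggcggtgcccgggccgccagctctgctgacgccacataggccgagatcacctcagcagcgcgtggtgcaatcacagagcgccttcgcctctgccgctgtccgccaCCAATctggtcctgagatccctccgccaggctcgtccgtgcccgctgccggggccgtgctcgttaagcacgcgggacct
Msmo1: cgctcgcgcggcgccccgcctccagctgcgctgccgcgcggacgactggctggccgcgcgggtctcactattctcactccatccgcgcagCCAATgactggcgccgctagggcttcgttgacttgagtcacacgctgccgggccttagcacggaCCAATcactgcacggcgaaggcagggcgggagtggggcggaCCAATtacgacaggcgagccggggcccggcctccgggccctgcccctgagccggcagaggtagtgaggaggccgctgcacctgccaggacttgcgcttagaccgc
Over the list, 13 of 17 windows (76.5%) held CCAAT on either strand, and so did all 10 called members with a window. The share was 37.4% of all windows, 33.3% of windows of genes that rose and 39.5% of windows of genes that fell. TCACNCCAC, a spaced core of the sterol regulatory element, was in none of the 17 windows and in 1.24% of all windows. That says only that these letters are not in these stretches.

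Lysosomal genes shifted upwards by small amounts: 9 of 27 rose, none fell and 24 had positive values, with a median of 0.22. Sqstm1, the p62 adaptor that delivers cargo to autophagosomes, went from 265, 290.0 and 269 CPM to 378, 330.1 and 350.3 CPM (log2 0.36 ± 0.07, adjusted p = 0.00863), and Atp6v1h, a subunit of the proton pump, from 105, 113 and 107 CPM to 136, 129 and 136 CPM (log2 0.31 ± 0.06). Tfeb, a transcription factor of lysosome genes, was called at 0.93 ± 0.23 (from 5.13, 5.65 and 7.16 CPM to 16.5, 8.75 and 9.90 CPM). Tfeb lost its call without control replicates 1 or 2 or without Trim33-deficient replicate 1. The hydrolases Ctsd, Gaa and Glb1 stood at 0.27, 0.36 and 0.37, each called, and Ctsb and Ctsl at 0.09 and 0.18, not called. Ctsd lost its call without control replicate 3 or without Trim33-deficient replicate 1, Gaa without control replicate 3 or without Trim33-deficient replicate 1, and Glb1 without control replicates 1 or 3 or without Trim33-deficient replicate 1. Without Trim33-deficient replicate 1 the count was 2, without control replicate 3 it was 3 and without control replicate 1 it was 5.

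Among p53 targets and DNA damage genes, 16 of 28 rose and 1 fell, with a median of 0.31. p53 is held low by Mdm2, which it induces itself, and its targets slow the cell cycle or start cell death. Trp53, its own gene, stood at 330.2, 259 and 315 CPM in the control libraries and 311, 291 and 296 CPM in the Trim33-deficient libraries (log2 -0.01 ± 0.10) and was not called. Mdm2 stood at 200.1, 152 and 193 CPM in the control libraries and 294, 256 and 281 CPM in the Trim33-deficient libraries (log2 0.61 ± 0.10, adjusted p = 0.00352). Cdkn1a, which encodes the kinase inhibitor p21, stood at 78.7, 58.7 and 80.3 CPM in the control libraries and 127, 113 and 119 CPM in the Trim33-deficient libraries (log2 0.72 ± 0.15, adjusted p = 0.0167). Cdkn1a lost its call without Trim33-deficient replicate 1.

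Other targets rose with them. Perp, a desmosome and apoptosis gene, went from 21.4, 15.9 and 18.96 CPM to 41.9, 33.9 and 32.3 CPM (log2 0.93 ± 0.14), Btg2, an antiproliferative gene, from 55.7, 46.7 and 57.2 CPM to 89.7, 82.4 and 86.1 CPM (log2 0.69 ± 0.09), and Trp53inp1, a stress-induced autophagy gene, from 541, 419 and 466 CPM to 762, 719.9 and 767 CPM (log2 0.66 ± 0.10). Bbc3, the death gene PUMA, rose by 0.35 (log2), and Phlda3, Eda2r, Polk, Ercc5 and Ei24 rose by 0.49, 0.48, 0.41, 0.39 and 0.23, all stable. Fas, the death receptor gene, was called at 1.16 ± 0.32 but lost its call in each of the 6 leave-outs. Bax, Ccng1, Sesn1 and Pmaip1 were not called, at 0.18, 0.40, -0.13 and -0.11. Rps27l, which fell, stood at -0.18 ± 0.05. Rps27l lost its call without control replicates 1 or 3 or without Trim33-deficient replicates 1, 2 or 3. The count of rises was 10 without Trim33-deficient replicate 1. In the Bcl2 family, besides Bbc3, the survival gene Bcl2l1 was called upwards (0.28) and the effectors Bok (-0.47) and Bak1 (-0.21) downwards. Bcl2l1 lost its call without control replicates 2 or 3 or without Trim33-deficient replicates 1, 2 or 3, Bok without control replicate 3 or without Trim33-deficient replicates 1 or 2, and Bak1 without control replicates 2 or 3 or without Trim33-deficient replicates 1, 2 or 3.

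DNA replication genes were lower almost without exception, by small amounts: 14 of 28 fell, none rose, 27 had negative values and the median was -0.17. Of all tested genes at 100 CPM or more, 11.1% fell. Negative values were also found for 23 of 24 mitosis genes, 27 of 29 oxidative phosphorylation genes and 30 of 37 ribosomal protein genes. The share of negative values among all genes at that level was not counted, so the signs are not particular to this list. Mcm6 and Mcm7, subunits of the MCM helicase, went from 603, 643 and 627 CPM to 506, 532 and 525 CPM (log2 -0.26 ± 0.04, adjusted p = 0.00185) and from 420.4, 465 and 435 CPM to 366, 379 and 363 CPM (log2 -0.25 ± 0.05, adjusted p = 0.00803). Tk1 and Rrm2, which supply nucleotides, fell by 0.38 and 0.28 (log2), Gins2 by 0.36 and Pola1, the catalytic subunit of the priming polymerase, by 0.26. Ccne1 and Ccne2, the cyclins that start S phase, were called at -0.34 and -0.54. Ccne1 lost its call without control replicates 1 or 3 or without Trim33-deficient replicates 1 or 2 and Ccne2 without control replicates 1 or 3 or without Trim33-deficient replicates 1 or 2. Pcna (-0.10), Cdt1 (0.01) and Cdc45 (-0.001) were not called. Of 24 mitosis genes 6 fell and none rose, led by Ube2c (-0.25 ± 0.04), the mitotic ubiquitin-conjugating enzyme, and Kif20a (-0.24 ± 0.05), a cytokinesis motor. Ccnd1, the cyclin that growth factors induce, fell from 128, 99.4 and 120.4 CPM to 87.2, 74.0 and 77.3 CPM (log2 -0.55 ± 0.09, adjusted p = 0.00230). Without Trim33-deficient replicate 1 the falls numbered 6 in the replication list and 2 in the mitosis list, without control replicate 3 they numbered 9 and 2, and without Trim33-deficient replicate 2 they numbered 9 and 3. The mitosis list also had 3 without Trim33-deficient replicate 3.

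TTTGGCGC and TTTCCCGC, forms of the E2F site, were searched on both strands, and 3 windows of genes that fell are shown with the matches in capitals (GCGCCAAA and GCGGGAAA where on the other strand). They are chr1:128359656-128359955, chr5:138171834-138172133 and chrX:93632106-93632405 on GRCm38.p6, all on the minus strand, from RefSeq.
Mcm6: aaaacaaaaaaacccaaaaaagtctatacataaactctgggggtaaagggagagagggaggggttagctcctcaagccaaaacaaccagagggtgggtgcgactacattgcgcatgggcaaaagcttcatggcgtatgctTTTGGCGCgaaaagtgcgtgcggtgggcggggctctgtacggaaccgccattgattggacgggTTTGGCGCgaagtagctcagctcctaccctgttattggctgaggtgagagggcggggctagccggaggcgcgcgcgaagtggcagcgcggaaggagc
Mcm7: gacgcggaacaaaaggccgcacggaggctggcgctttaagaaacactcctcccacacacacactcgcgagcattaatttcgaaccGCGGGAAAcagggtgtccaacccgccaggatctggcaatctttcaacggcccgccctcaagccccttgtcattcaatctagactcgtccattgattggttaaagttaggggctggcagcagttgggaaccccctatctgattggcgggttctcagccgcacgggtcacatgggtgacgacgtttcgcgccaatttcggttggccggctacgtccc
Pola1: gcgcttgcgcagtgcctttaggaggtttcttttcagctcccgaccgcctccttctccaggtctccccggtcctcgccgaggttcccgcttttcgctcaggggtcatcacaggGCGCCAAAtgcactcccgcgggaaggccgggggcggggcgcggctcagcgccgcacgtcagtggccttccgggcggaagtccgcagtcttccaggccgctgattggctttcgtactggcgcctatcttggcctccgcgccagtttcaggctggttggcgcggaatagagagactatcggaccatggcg
Mcm7 has a second window, without either form. In the list 9 of 22 windows (40.9%) held one of them, including 5 of the 11 called members with a window. The share was 1.56% of all windows, 2.80% of windows of tested genes, 6.13% of windows of genes that fell and 1.94% of windows of genes that rose.

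In the Nodal and TGF-beta family, where Trim33 is known to act on SMADs, few genes changed. Among 10 tested ligands, co-factors and antagonists only Lefty1, a secreted Nodal inhibitor, was called, from 101, 129.9 and 118 CPM to 159, 169 and 172 CPM (log2 0.52 ± 0.12, adjusted p = 0.0216). Lefty1 lost its call without control replicates 1 or 3 or without Trim33-deficient replicates 1, 2 or 3. Nodal itself stood at 132, 105 and 124 CPM in the control libraries and 143, 137 and 136 CPM in the Trim33-deficient libraries (log2 0.21 ± 0.10, adjusted p = 0.201), and the groups lay close together. Of 11 receptors 2 rose: Eng, the co-receptor endoglin, from 41.9, 35.1 and 39.7 CPM to 63.5, 59.4 and 56.5 CPM (log2 0.62 ± 0.09, adjusted p = 0.000561), and Tgfbr2, from 1.84, 0.773 and 0.944 CPM to 2.97, 2.50 and 2.95 CPM (log2 1.23 ± 0.30). Tgfbr2 lost its call without control replicates 2 or 3 or without Trim33-deficient replicates 1 or 3. The Nodal receptors Acvr1b (-0.08), Acvr2a (-0.04) and Acvr2b (-0.18) were not called. Of 18 SMADs, partners and repressors, only the repressor Skil was called (0.15 ± 0.05), and Smad2, Smad3 and Smad4 stood at -0.02 ± 0.06, -0.08 ± 0.21 and -0.02 ± 0.06. Skil lost its call without control replicates 1 or 3 or without Trim33-deficient replicates 1, 2 or 3.

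Among 15 Nodal and Activin targets 3 rose: Lefty1, Skil and Bambi, a decoy receptor for the whole family that BMP also induces. Bambi stood at 11.3, 12.99 and 12.9 CPM in the control libraries and 18.99, 21.3 and 19.5 CPM in the Trim33-deficient libraries (log2 0.69 ± 0.10, adjusted p = 0.00102), with no overlap, and was stable. Lefty2, Pmepa1 and Smad7 stood at -0.14, -0.23 and -0.13, none called. Of 16 BMP targets Bambi and Id1, an inhibitor of basic helix-loop-helix factors (0.57 ± 0.15), rose and Dusp9 (-0.34 ± 0.09) fell. Id1 lost its call without control replicates 2 or 3 or without Trim33-deficient replicates 1 or 2 and Dusp9 without control replicates 2 or 3 or without Trim33-deficient replicates 1, 2 or 3. Id2 and Id3 stood at 0.27 and -0.03, not called. None of 11 tested primitive streak genes was called by edgeR or by DESeq2, and none had an unadjusted p under 0.05. T, known as Brachyury, stood at 1.12, 1.39 and 0.866 CPM in the control libraries and 1.06, 1.63 and 1.23 CPM in the Trim33-deficient libraries (log2 0.24 ± 0.33), Eomes at 12.4, 16.6 and 14.5 CPM in the control libraries and 12.1, 11.8 and 11.1 CPM in the Trim33-deficient libraries (log2 -0.32 ± 0.17) and Mixl1 at 1.76, 1.78 and 2.99 CPM in the control libraries and 1.697, 1.44 and 2.34 CPM in the Trim33-deficient libraries (log2 -0.24 ± 0.28). With standard errors of 0.33, 0.17 and 0.28, a change of the size of the median rise (0.44) could have gone uncalled for T, Eomes and Mixl1 at this depth.

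FGF and MAP kinase genes moved in part. Besides Fgfbp1 and Fgf15, the docking protein Frs2 rose by 0.27 ± 0.06 (log2), while Fgf4, Fgf5 and Fgfr1 stood at -0.19, -0.19 and -0.03 and were not called. Of 14 ERK feedback genes 3 rose: Dusp4, from 48.2, 41.3 and 51.5 CPM to 85.5, 66.5 and 59.6 CPM (log2 0.57 ± 0.11), Spry2 (0.43) and Etv1 (0.45). Spry2 lost its call without control replicates 1, 2 or 3 or without Trim33-deficient replicates 1 or 2 and Etv1 without control replicates 2 or 3 or without Trim33-deficient replicates 1 or 2. Dusp6 and Spry4 stood at 0.25 ± 0.11 and 0.76 ± 0.33, not called. Of 16 immediate early genes 5 rose. Jun went from 15.5, 14.5 and 14.9 CPM to 33.6, 24.6 and 28.6 CPM (log2 0.94 ± 0.13, adjusted p = 0.000424), Junb from 5.29, 6.26 and 4.56 CPM to 15.6, 9.94 and 9.53 CPM (log2 1.09 ± 0.25) and Klf6 from 87.8, 84.4 and 84.9 CPM to 144, 127 and 136 CPM (log2 0.66 ± 0.07), and Jund and Ier2 stood at 0.34 and 0.29. Junb lost its call without control replicates 1 or 3 or without Trim33-deficient replicate 1, Jund without Trim33-deficient replicate 1, and Ier2 without control replicate 3 or without Trim33-deficient replicate 1. Fos (0.31 ± 0.24) and Egr1 (0.07 ± 0.18), their usual companions after a stimulus, were not called. The count was 2 without Trim33-deficient replicate 1 and 3 without control replicate 3.

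Of 16 genes whose proteins write, read or remove methylation of lysine 9 on histone H3, or help to, 5 fell and none rose. Over all tested genes 3.90% fell, and 11.1% of those at 100 CPM or more. Suv39h2, a methyltransferase of that residue, went from 89.2, 87.5 and 89.8 CPM to 67.4, 73.6 and 70.7 CPM (log2 -0.33 ± 0.06, adjusted p = 0.00235) and was stable. Ehmt1 (-0.20) and the heterochromatin proteins Cbx1 (-0.18), Cbx3 (-0.41) and Cbx5 (-0.17) were called as well. Ehmt1 lost its call without Trim33-deficient replicate 1, Cbx1 without control replicates 1 or 3 or without Trim33-deficient replicates 1, 2 or 3, Cbx3 without control replicates 1 or 3 or without Trim33-deficient replicates 1 or 2, and Cbx5 without control replicates 1 or 3 or without Trim33-deficient replicates 1, 2 or 3. Cbx3 has near-identical copies and is uncertain. Setdb1 and Ehmt2 stood at -0.03 ± 0.05 and -0.12 ± 0.06, not called. Without Trim33-deficient replicate 1 the count was 1, and without control replicate 1, control replicate 3 or Trim33-deficient replicate 2 it was 2, and without Trim33-deficient replicate 3 it was 3. In the germline list 2 of 19 tested genes rose and 3 fell. The rises were Dppa3, described above, and Prdm1, a repressor needed for primordial germ cells, which was called at 0.50. Prdm1 lost its call without control replicates 1 or 3 or without Trim33-deficient replicates 1, 2 or 3. Tdrd1, a tudor protein of the piRNA pathway, fell from 13.5, 12.5 and 13.6 CPM to 7.64, 7.94 and 10.1 CPM (log2 -0.61 ± 0.13), and Tdrd12 and Mov10l1 of the same pathway were called at -0.36 and -0.30. Tdrd12 lost its call without control replicates 2 or 3 or without Trim33-deficient replicates 1, 2 or 3 and Mov10l1 without control replicates 1 or 3 or without Trim33-deficient replicates 2 or 3.

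Calcium-binding and membrane-linked proteins were higher in 6 of 17 cases. S100a11 went from 2.88, 3.40 and 3.38 CPM to 8.70, 6.56 and 5.53 CPM (log2 1.07 ± 0.18, adjusted p = 0.00212) and S100a10, which pairs with annexin A2, from 15.5, 12.6 and 13.4 CPM to 21.4, 21.8 and 20.5 CPM (log2 0.62 ± 0.13), both stable. Ahnak, a giant scaffold protein that binds S100a10, went from 14.4, 5.95 and 11.2 CPM to 42.96, 22.8 and 34.2 CPM (log2 1.64 ± 0.34). Ahnak lost its call without control replicate 3 or without Trim33-deficient replicates 1 or 3. Lgals1 and Anxa5 were called at 0.48 and 0.53. Lgals1 lost its call without control replicate 3 or without Trim33-deficient replicate 1 and Anxa5 without control replicates 1 or 3 or without Trim33-deficient replicates 1 or 3. The count was 2 without Trim33-deficient replicate 1 and 3 without control replicate 3. Among 30 genes of the actin cytoskeleton 3 were called upwards, Flnc (0.30) and Actn1 (0.18), which cross-link actin, among them, and Tmsb10 (-0.43) downwards, and 23 of the 30 had negative values. Flnc lost its call without control replicate 3 or without Trim33-deficient replicate 1, Actn1 without control replicate 3 or without Trim33-deficient replicate 1, and Tmsb10 without control replicates 2 or 3 or without Trim33-deficient replicates 1 or 3.

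Adhesion genes gave single changes. Cdh2, the neural and mesodermal cadherin, went from 10.3, 7.58 and 8.73 CPM to 15.5, 13.8 and 14.6 CPM (log2 0.72 ± 0.15, adjusted p = 0.00970), while Cdh1, the epithelial cadherin, stood at -0.08 ± 0.05 and was not called. Cdh2 was the only called gene of 12 mesenchymal ones. Of 22 epithelial genes Dsp, Jup and Esrp2 rose, Dsp from 12.3, 15.002 and 13.2 CPM to 20.4, 19.9 and 19.97 CPM (log2 0.57 ± 0.09) and Jup from 97.9, 96.1 and 97.4 CPM to 137, 119 and 116 CPM (log2 0.35 ± 0.07), both proteins of the desmosome plaque, with Esrp2 at 0.43. Esrp2 lost its call without control replicates 1 or 3 or without Trim33-deficient replicates 2 or 3. Lamb2, a laminin chain of basement membranes, rose by 0.58 ± 0.10 (log2) and was stable.

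Of the markers of other cell types, endoderm and trophoblast genes had summed levels that were higher in every Trim33-deficient library than in any control, blood and endothelial genes had lower ones, and the sums of neuroectoderm and fibroblast markers overlapped between the groups. The endoderm sum was higher through Apoe, and the trophoblast sum in large part through Tfap2c and Tfeb. The summed level of 15 neuroectoderm genes was 110 to 140 CPM in controls and 118 to 124 CPM in Trim33-deficient bodies, and none of 9 tested was called by edgeR or DESeq2, with 1 at an unadjusted p under 0.05. The summed level of 17 endoderm genes was 435 to 560 CPM in controls and 671 to 891 CPM in Trim33-deficient bodies. Apoe alone made up this gain, from 365, 484 and 356 CPM to 824, 598 and 609.9 CPM (log2 0.75 ± 0.17), and was the only 1 of 12 tested members called. The other endoderm genes together were not higher. Among the 12, 7 had positive and 5 had negative values. Apoe lost its call without control replicates 1 or 3 or without Trim33-deficient replicate 1. Trophoblast genes summed to 32.3 to 42.2 CPM and 47.9 to 65.4 CPM, with 2 of 13 called, Tfap2c and Tfeb. Tfap2c is also active in naive stem cells, and Tfeb is also in the lysosome list. Cdx2, Hand1, Gata3 and Esx1 were tested and not called, and Elf5 and Prl3d1 were too low to test. Of the 13, 12 had positive values and 1 a negative one. Fibroblast markers, which would come from feeder cells, summed to 33.1 to 42.1 CPM and 31.2 to 34.9 CPM, with Col1a1 the 1 called of 6 and Fap at 0 in all 6 libraries. Blood and endothelial markers summed to 23.1 to 27.4 CPM and 17.4 to 19.9 CPM, with 4 of 13 at 0, the globin genes Hbb-b1, Hba-a1, Hbb-bh1 and Hba-x, and Lmo2 (-0.61) the 1 called of 6. Lmo2 lost its call without control replicates 2 or 3 or without Trim33-deficient replicates 1, 2 or 3. The part of these cell types in the other results was not tested.

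Several programmes gave no call or few. Of 27 genes of the amino acid response under ATF4 none was called by edgeR or DESeq2, with 5 at an unadjusted p under 0.05, and Atf4 stood at 0.09 ± 0.06. Of 25 glycolysis and hypoxia genes none was called by either tool, with 1 at an unadjusted p under 0.05, and the list was high in control replicate 2. Of 11 genes of the 2-cell-like state none was called by either tool and none had an unadjusted p under 0.05. Of 18 Wnt genes only Ccnd1 was called, and Axin2, a direct target of beta-catenin, stood at 0.10 ± 0.10. Of 17 RNA sensor and interferon genes only Ddx58, the RNA sensor RIG-I, was called, from 27.8, 25.4 and 32.7 CPM to 63.1, 50.1 and 52.0 CPM (log2 0.94 ± 0.10). Of 29 nuclear genes of oxidative phosphorylation 3 fell, 8 with upper-quartile factors and 0 without control replicate 3 or without Trim33-deficient replicate 1, and 27 of the 29 had negative values. Of 37 ribosomal protein genes 3 fell, Rps7 (-0.49), Rplp2 (-0.24) and Rpl10 (-0.43), all uncertain because of near-identical copies, and 1 without control replicate 3 or without Trim33-deficient replicate 3. Rpl10 lost its call in each of the 6 leave-outs.

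Genes that the drug itself could touch were looked at as well. Of 12 tested estrogen receptor targets and partners 1 rose and 2 fell: Ctsd and Ccnd1, described above, and Igfbp4 (-0.995 ± 0.26). Igfbp4 lost its call without control replicates 2 or 3 or without Trim33-deficient replicates 1, 2 or 3. Greb1, a classical estrogen target, stood at -0.23 ± 0.11 and Pgr at 0.30 ± 0.19, not called. Of 13 aryl hydrocarbon and oxidative stress genes Gclc (0.22 ± 0.04) and Txnrd1 (0.20 ± 0.06) rose, and Cyp1b1 stood at 0.91 ± 0.41, not called. DESeq2 called 4 rises in this list, and upper-quartile factors gave 1. Of the 13, 8 had positive and 5 had negative values. The groups did not overlap for 8 of the 13, against 14.9% of all tested genes upwards and 14.5% downwards. Txnrd1 lost its call without control replicates 1, 2 or 3 or without Trim33-deficient replicates 1 or 2.

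**Figure D4:**
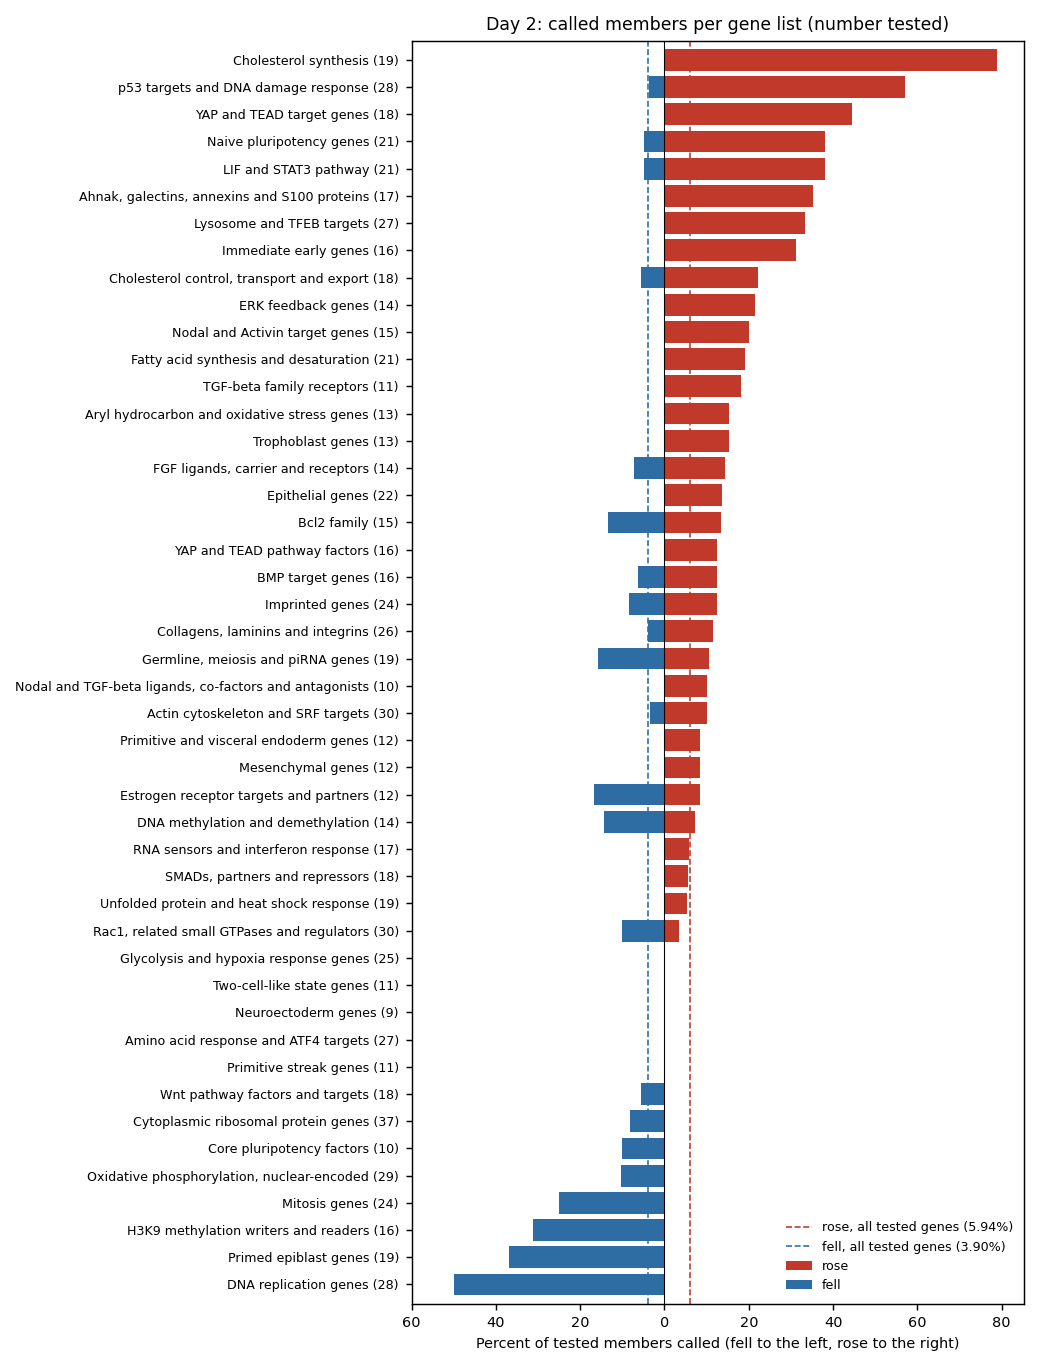
Percent of tested members that rose (red, to the right) or fell (blue, to the left) in each gene list on day 2, with the number tested in parentheses and the shares over all tested genes, 5.94% and 3.90%, as dashed lines. Cholesterol synthesis reaches 78.9% to the right and DNA replication 50% to the left.

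For each gene the day 2 difference was set against that on day 2.5 by the interaction of genotype and day, which uses all 12 libraries and shares no library between the days. The fit takes all libraries as independent, although some same-numbered control libraries correlated between the days, as given in the closing section. The interaction was called for 160 of the 1413 genes called on day 2 (11.3%) and for 4.01% of all genes tested. The 1413 were selected by the day 2 difference, which is itself part of the interaction, so these shares are not an independent comparison. Of these 160, 145 had the larger difference on day 2.5, and 15 the larger on day 2. On day 2.5 itself 42.8% of tested genes were called. Of the 1413, 198 were not called on day 2.5 and 6 were called the other way. The number of interactions called over all genes was 575, and leaving out 1 library moved it between 119 and 1217.

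Differences that were larger on day 2 were few. Olig1, a basic helix-loop-helix gene, stood at 11.9, 12.8 and 11.5 CPM in the control libraries and 21.9, 18.3 and 18.3 CPM in the Trim33-deficient libraries on day 2 (log2 0.68 ± 0.10, adjusted p = 0.000793), and at 0.01 ± 0.09 on day 2.5 (interaction -0.67 ± 0.13, adjusted p = 0.0128). Dsg2, a desmosomal cadherin, rose from 31.0, 32.5 and 29.7 CPM to 50.6, 48.9 and 46.1 CPM on day 2 (log2 0.64 ± 0.07) and stood at 0.20 ± 0.06 on day 2.5 (interaction -0.44 ± 0.09, adjusted p = 0.0168). Arl4d, a small GTPase of the ARF family, fell from 33.6, 28.6 and 31.9 CPM to 21.5, 20.8 and 22.6 CPM on day 2 (log2 -0.54 ± 0.10) and stood at 0.35 ± 0.09 on day 2.5 (interaction 0.88 ± 0.13, adjusted p = 0.00388). Rplp2 and Dpp4 fell by 0.24 and 0.47 on day 2 and stood at 0.16 and 0.41 on day 2.5. Rplp2 lost its call without control replicate 3 or without Trim33-deficient replicate 3 and Dpp4 without control replicates 1, 2 or 3 or without Trim33-deficient replicates 1 or 2. Slc16a6 and Tpt1, among the largest stable falls of day 2, stood at -0.01 and 0.07 on day 2.5.

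More often the early difference was the smaller one. Inpp5d, the lipid phosphatase SHIP1, which has a stem cell form, stood at 45.8, 43.1 and 47.8 CPM in the control libraries and 104, 79.1 and 76.5 CPM in the Trim33-deficient libraries on day 2 (log2 0.92 ± 0.11) and at 2.31 ± 0.12 on day 2.5 (interaction 1.40 ± 0.16, adjusted p = 0.00170). P2rx7, 1700061G19Rik and E330020D12Rik had log2 differences of 1.34, 1.51 and 1.33 on day 2 and 3.12, 2.97 and 3.32 on day 2.5, and Fgfbp1 1.99 and 3.05. In the cholesterol pathway Cyp51 went from 0.77 to 1.19, with a called interaction. Sdc4, Gclc, Gm2373 and 4930548H24Rik behaved alike in the interaction test, and their values are given in the closing section. For Socs3, Ctgf, Rac1 and Thsd7a the interaction was not called, at -0.30 ± 0.32, 0.19 ± 0.14, -0.21 ± 0.07 and -0.72 ± 0.24.

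**Figure D5:**
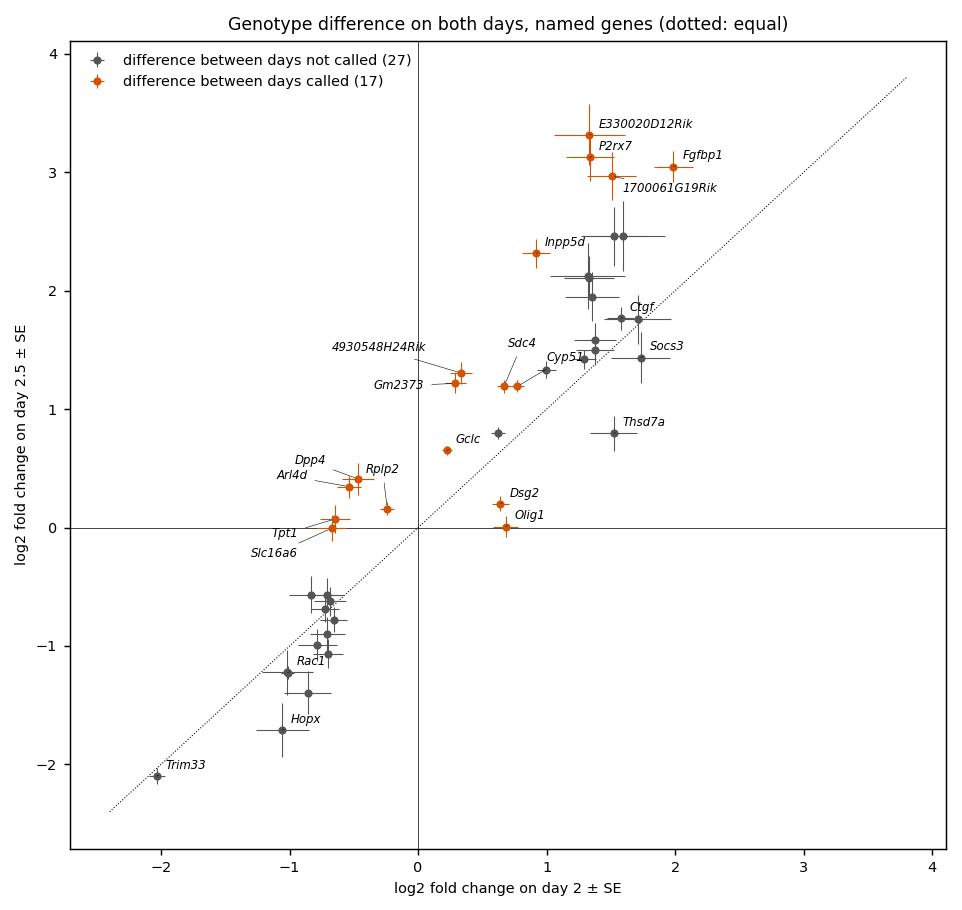
Log2 fold change of Trim33-deficient over control on day 2 (horizontal) and day 2.5 (vertical) with standard errors, for 44 genes named for the size, the adjusted p or the interaction of their day 2 difference. The 17 genes with a called interaction are in orange, and most of them lie above the dotted line of equal difference.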

How the data were processed

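RNA from day 2 and day 2.5 embryoid bodies was sequenced as 12 libraries in 4 groups of 3, of which the 6 day 2 libraries are described. The values are the authors' deposited raw counts, whole numbers of reads for each gene symbol. The submitters' processing notes name STAR, HTSeq, DESeq and the build mm9. The annotation, the tool versions, strandedness and how multi-mapped reads were counted are not given there, so genes with near-identical copies and antisense genes are uncertain. The 5 closing rows, which name no gene, were left out, and 40.8 to 43.6% of the reads counted on day 2 were assigned to a gene. In 1 day 2.5 library, 27 gene names turned into dates were restored by row position.

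Among 24015 genes listed, 19581 had at least 1 count and 14356 were tested after edgeR's filterByExpr. Tests were run in R 4.3.3 with edgeR 4.0.16, using TMM factors, 4 group means over all 12 libraries, a robust quasi-likelihood fit with 8 residual degrees of freedom, and Benjamini-Hochberg adjustment, with an adjusted p under 0.05 as the threshold. All 12 libraries share 1 estimate of the spread. Standard errors are the fold change divided by the root of its F statistic. The script was checked on simulated counts.

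The comparison and the 51 gene lists were chosen with earlier results of these data known, so no list is independent evidence. Genes were named by a rule: Trim33; among called genes with a mean of at least 1 CPM, no overlap between groups and a call in each of the 6 fits without 1 day 2 library, the 15 largest rises, the 15 largest falls and the 10 smallest p; up to 5 called members of each list; the 5 smallest interaction p in each direction; the 5 nearest genes on each side of Trim33 and Rac1. List members that were not called were described by their role. Some genes that the rule names are not reported here, but counts over lists and over all genes include them. Promoter windows came from RefSeq on GRCm38.p6, and 23825 of 24015 gene names matched its gene table. Alternatives were other scaling (RLE, upper quartile), other filters, DESeq2 1.42.0, day 2 alone, replicate blocks, removal of ribosomal RNA rows, and leaving out libraries.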

Additional observations from a re-analysis of the deposited data

Results flagged for a closer look

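The results below were picked out because the genotype difference changed between day 2 and day 2.5 by the test of the interaction itself (edgeR, Benjamini-Hochberg over all tested genes). Each value is the day 2.5 minus the day 2 log2 difference. They are given as values, with no explanation.

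Among genes whose day 2 difference was the larger or the opposite one, the interaction was 0.88 for Arl4d (adjusted p = 0.00388), 0.40 for Rplp2 (0.0127), -0.67 for Olig1 (0.0128), -0.44 for Dsg2 (0.0168), 0.88 for Dpp4 (0.0178), 0.67 for Slc16a6 (0.0302) and 0.72 for Tpt1 (0.0275). Of these 7, Arl4d kept its interaction call in all 21 alternatives that keep both days. Olig1 kept it in 20, Rplp2 and Dsg2 in 19, Dpp4 in 17, Slc16a6 in 15 and Tpt1 in 14. Rplp2 and Tpt1 have near-identical copies and are uncertain.

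Among genes whose day 2.5 difference was the larger, it was 1.40 for Inpp5d (adjusted p = 0.00170), 0.97 for 4930548H24Rik (0.00170), 0.93 for Gm2373 (0.00170) and 0.43 for Gclc (0.00170). On day 2 these 4 stood at 0.92, 0.34, 0.29 and 0.22. On day 2 itself Gm2373 lost its call without control replicates 1, 2 or 3 or without Trim33-deficient replicates 1 or 2 and 4930548H24Rik without control replicates 1 or 3 or without Trim33-deficient replicates 1, 2 or 3. The interaction was 1.06 for Fgfbp1 (0.0159), 1.46 for 1700061G19Rik (0.0181), 1.79 for P2rx7 (0.00732) and 1.98 for E330020D12Rik (0.0164). It was 0.42 for Cyp51 (0.00719) and 0.52 for Sdc4 (0.00388). Of these 10, E330020D12Rik kept its call in 18 of 21 alternatives, Fgfbp1 and 1700061G19Rik in 17, and the other 7 in all 21.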

How the results depend on the processing

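Over 23 alternatives, Trim33 kept its call and lay between -2.07 and -1.97. Of the 174 called day 2 genes named, Trim33 included, 102 kept their call in every alternative that gave them a p, 72 lost it in at least 1 and none changed direction, while 18 of the named genes that were not called gained a call in at least 1. The number of genes called on day 2, 1413 in the report, was 954 with the day 2 libraries alone (349 falls), 814 without both libraries high in Rn45s (556 rises and 258 falls) and 1638 without those and control replicate 2. With 1 library left out it ranged from 514 to 1617, with 364 to 976 rises and 150 to 641 falls. DESeq2 called 1505 and upper-quartile factors gave 1514. The interaction count, 575 in the report, was 831 with DESeq2, 840 without both libraries high in Rn45s, 1967 without 3 libraries and between 119 and 1217 with 1 left out. With a replicate block the day 2 count was 1870 and the interaction count 1169, and on day 2 alone 1398. Deviations from the group means of same-numbered day 2 libraries correlated at 0.08, 0.19 and -0.08, and not every library correlated best with its own number. With 3 libraries per group, that check cannot decide whether the numbers pair control with Trim33-deficient samples on day 2. The block gave more day 2 calls, 1870 against 1413 with all libraries and 1398 against 954 on day 2 alone. Whether the numbers mark the pairs therefore stays unsettled, and the fit in the report has no block. Between day 2 and day 2.5, same-numbered control libraries correlated at 0.42, 0.51 and 0.05, and same-numbered Trim33-deficient libraries at 0.201, -0.02 and 0.105. Some control libraries of the 2 days may therefore share a source, which was not tested. Depth and 3 libraries per group limit low genes most: rises past 2-fold began at a median of 2.07 CPM. The cause of these differences between settings was not tested.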

Other observations

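Imprinted genes gave 3 rises and 2 falls of 24 tested on day 2, where 5.94% of all tested genes rose and 3.90% fell. Impact, an inhibitor of the kinase GCN2 that is expressed from the paternal copy, rose from 329, 321 and 319 CPM to 447, 433 and 453 CPM (log2 0.46 ± 0.06, adjusted p = 0.000350, edgeR with Benjamini-Hochberg adjustment). Meg3 and Mirg, noncoding RNAs of the Dlk1-Dio3 region, were called at 0.38 and 0.48, while Dlk1 of the same region was called at -0.43 and Nnat at -0.37. Meg3 lost its call without control replicates 1 or 2 or without Trim33-deficient replicates 1, 2 or 3, Mirg without Trim33-deficient replicate 1, Dlk1 without control replicates 1 or 3 or without Trim33-deficient replicates 1, 2 or 3, and Nnat without control replicates 1 or 3 or without Trim33-deficient replicates 1 or 2.

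By the class of gene in the RefSeq table, 823 of 13585 protein-coding genes rose and 550 fell, and 19 of 488 long noncoding RNA genes rose and 3 fell. Hmgcs1 had 0 counts over all 12 libraries and Eno1 and Tdg had 6 and 34, although other genes of their pathways stood high, so these rows carry no usable measurement here.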
